A study of Rattus norvegicus with 2 samples.

Results

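The genes of medullary osmolyte and urea transport form a set of 7 named genes, of which 6 were measured with a probe set of their own among 22093 such gene symbols. They comprise Akr1b1, Slc5a3, Slc6a6 and Slc6a12, which make or take up organic osmolytes, Slc14a1 and Slc14a2, which encode urea transporters, and Nfat5, the transcription factor of the tonicity response. A member was any gene whose symbol stood alone in the platform annotation of a probe set, and the probe set with the highest mean log2 value represented it. Slc6a12, the betaine transporter gene, had no probe set under its own symbol in the annotation used and was not analysed here. The remaining 6 genes had 7 probe sets, as Nfat5 had 2.

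Both groups were male Dahl salt-sensitive (Dahl/SS) rats, a strain that becomes hypertensive on dietary salt, fed 8% NaCl for 4 weeks. DSH+2.5%SF rats also received 25 mg of sucroferric oxyhydroxide (SF), an iron-based intestinal phosphate binder, per g of chow from 1 week after the salt began, and DSH rats received the salt alone. The sample labels name the pools as 2.5%SF and control, and the salt diet is taken from the methods. Each group is 1 pool of whole-kidney RNA from 3 rats on 1 Clariom D array, so the medulla was measured together with the cortex and no replicate error exists. In a whole-kidney pool, fewer cells of a type and less RNA per cell cannot be told apart.

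The renal medulla is kept hypertonic by sodium chloride and urea, and this gradient allows water to be drawn from the collecting duct. Medullary cells balance the external solute by accumulating organic osmolytes, chiefly sorbitol, myo-inositol, betaine, taurine and glycerophosphocholine. NFAT5, also called TonEBP, binds the tonicity-responsive element (TonE) and raises transcription of the osmolyte genes, whereas the urea transporters recycle urea between the collecting duct, the thin limbs and the vasa recta.

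The values are intensities on a linear scale, as deposited. Each probe set was given a log2 ratio (DSH+2.5%SF over DSH) and a Z-score, the Z-score being the log2 ratio minus its mean (0.03) divided by its SD (0.34) over all 68842 probe sets. A gene was counted as lower at a Z-score of −2.0 or less with a ratio of 0.66 or less, and as higher at 2.0 or more with a ratio of 1.5 or more, the thresholds stated in the methods. These thresholds amount to a 1.57-fold lower or a 1.63-fold higher level. The median intensity of all probe sets was 23.7 in DSH+2.5%SF and 22.9 in DSH, and the 75th percentile was 83.8 in DSH+2.5%SF and 83.7 in DSH. Genes that define the kidney were bright in both pools, with Slc34a1, the proximal tubule phosphate transporter gene, at 103542 in each and Umod, the uromodulin gene of the thick ascending limb, at 469762 in each. The same intensity in both pools was listed for 5138 probe sets, and none of the 7 probe sets of the osmolyte and urea genes was among them.

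All 6 measured genes had a lower intensity in the DSH+2.5%SF pool than in the DSH pool, and 1 of them, Akr1b1, passed the criteria. None was higher. Among all 22093 gene symbols 47.5% had a log2 ratio below 0, 1.36% were lower by the criteria and 1.09% were higher. The median log2 ratio of the 6 genes was −0.45, with a range of −1.03 to −0.29, beside a median of 0 over all gene symbols. With dim probe sets left out, the median over all gene symbols was −0.04. The members were chosen with earlier results of these data known. With 1 pool on each side there is no p-value, and the 6 genes are not replicates of each other.

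**Figure D1:**
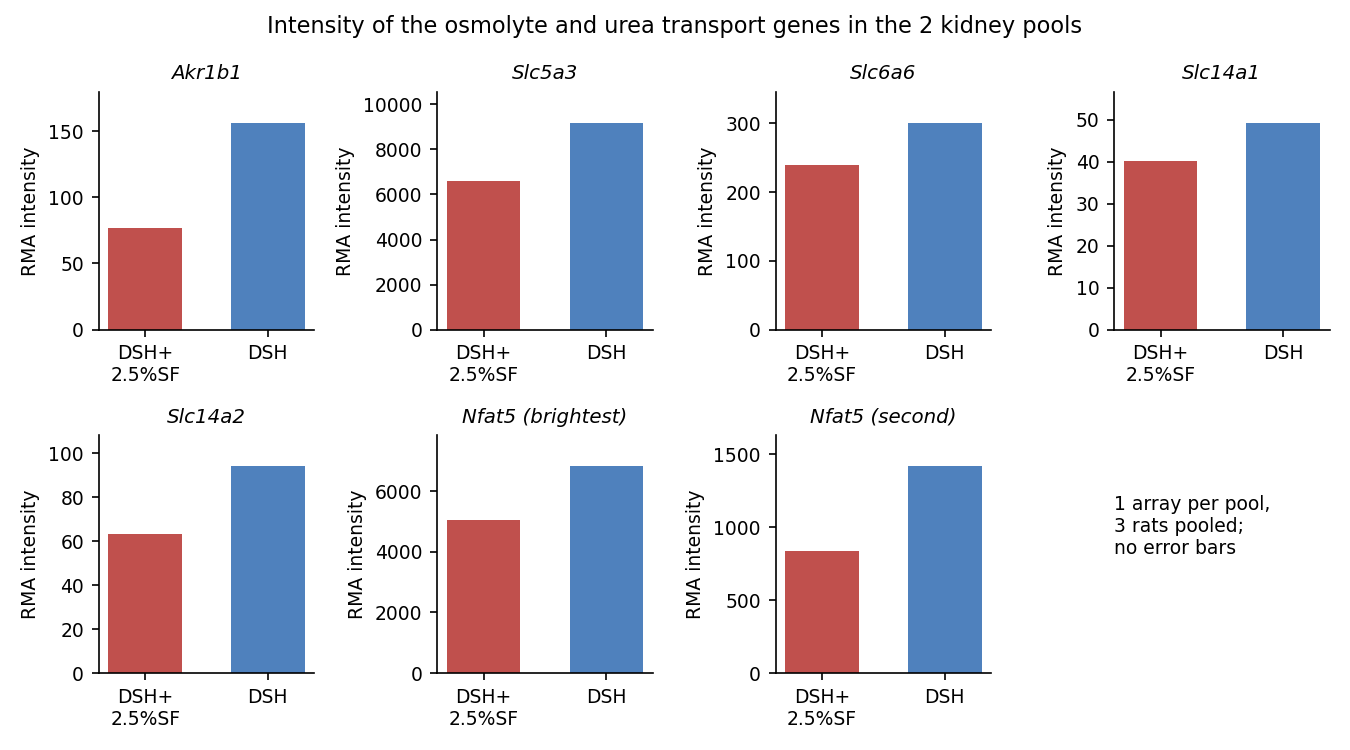
RMA intensity on a linear axis from 0 for each probe set of the osmolyte and urea transport genes, with the DSH+2.5%SF pool left and the DSH pool right in each panel; each panel has its own axis. The DSH+2.5%SF bar is the lower one in every panel, by 2.04-fold for Akr1b1 and by 1.22-fold for Slc14a1.

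Akr1b1 encodes aldose reductase, which converts glucose to sorbitol. Its intensity was 76.5 in the DSH+2.5%SF pool and 156 in the DSH pool, a 2.04-fold lower level (log2 ratio −1.03, Z-score −3.13). The DSH value lay at percentile 81.3 of all probe sets and the DSH+2.5%SF value at percentile 73.8, so the gene was well within the measured range in both pools. Among all gene symbols, 33 had a lower log2 ratio. The spread of log2 ratios depends on brightness, so each gene was also set against the 1000 probe sets nearest to it in mean log2 value. Of those around Akr1b1, 0.7% had a log2 ratio as low, and the Z-score computed among them was −2.73, past the threshold as well. Across all gene symbols 0.887% were lower by that version of the criteria, and Akr1b1 was the member that passed it.

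Slc5a3 encodes SMIT1, the sodium-coupled transporter that brings myo-inositol into cells. Its intensity was 6608 in DSH+2.5%SF and 9169 in DSH, a log2 ratio of −0.47 that did not pass the criteria (Z-score −1.48). It is one of the brighter probe sets on the array, where the ratios of all probe sets spread more widely, with an SD of 0.47 among its 1000 neighbors in brightness. Of these neighbors 10% had a log2 ratio as low.

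Slc6a6 encodes TauT, the taurine transporter. The gene had intensities of 239 in DSH+2.5%SF and 301 in DSH, with a log2 ratio of −0.33 and a Z-score of −1.06. Among probe sets of similar brightness 15% had a log2 ratio as low, so this difference lay well inside the spread at its brightness.

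The 2 urea transporter genes are neighbors on chromosome 18. Slc14a2 encodes the UT-A transporters, which in the rat kidney lie in the inner medullary collecting duct and the thin descending limb. It had 63.5 in DSH+2.5%SF and 94.0 in DSH, a log2 ratio of −0.57, the lowest after Akr1b1. Its ratio of 0.675 stood just above the limit of 0.66, and its Z-score of −1.76 did not pass. Of probe sets of similar brightness 4.1% had a log2 ratio as low. Slc14a1 encodes UT-B, the urea transporter of the descending vasa recta and of red cells. It was the dimmest member, at 40.3 in DSH+2.5%SF and 49.2 in DSH, and had the smallest difference, with a log2 ratio of −0.29 and a Z-score of −0.95. At that brightness 14.6% of probe sets had a log2 ratio as low.

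Nfat5 was read by 2 probe sets, and they differed in whether they passed. The brighter one, which represents the gene by the rule, had 5039 in DSH+2.5%SF and 6808 in DSH, with a log2 ratio of −0.43 and a Z-score of −1.37. The other had 837 in DSH+2.5%SF and 1417 in DSH, a 1.69-fold lower level with a Z-score of −2.33, which passed the criteria, as did 2.2% of all probe sets. That call was not kept when the Z-score was computed among probe sets of similar brightness (−1.79), although 1.9% of those had a log2 ratio as low. Both probe sets were thus lower in the DSH+2.5%SF pool, by 1.35-fold on the brighter and 1.69-fold on the dimmer one.

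The 2 probe sets of Nfat5 may not read the same strand. Probe sets are numbered along each chromosome, and 95.7% of 16059 probe sets shared the RefSeq strand of most annotated neighbors within 12 numbers. Of the 4 members with a known strand Slc6a6 did not, with 2 neighbors on its own plus strand and 5 on the minus strand. Whether its probe set reads the Slc6a6 mRNA was therefore not determined. Akr1b1 had no strand given and only 1 neighbor with a known strand, on the minus strand. Whether its probe set reads the Akr1b1 mRNA was thus not determined either. Around the dimmer Nfat5 probe set, 5 of 5 neighbors with a known strand lay on the plus strand, and around the brighter one 3 of 3 lay on the minus strand. The tables used here give no strand for Nfat5 itself, and no probe sequence or coordinate was used, so which of the pair reads the mRNA was not determined. With the dimmer probe set representing Nfat5, a choice made after its value was seen, 2 of the 6 genes were lower by the criteria.

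**Figure D2:**
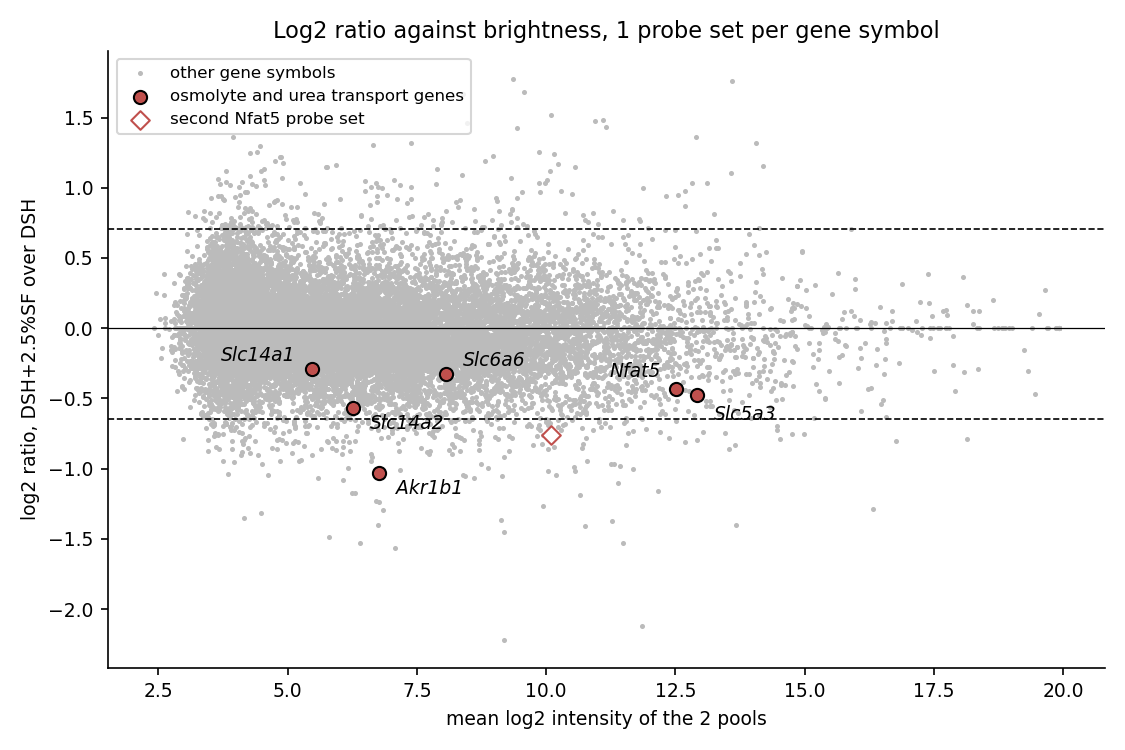
Log2 ratio of DSH+2.5%SF over DSH (vertical) against the mean log2 intensity of both pools (horizontal) for 22093 gene symbols in gray and the 6 osmolyte and urea transport genes in red, with the second Nfat5 probe set as an open diamond. Dashed lines mark a Z-score of −2.0 and 2.0; Akr1b1 and the open diamond lie under the lower line and the other 5 genes between it and 0.

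By role, the lowest ratio belonged to the enzyme that makes sorbitol (−1.03), followed by UT-A (−0.57), the myo-inositol transporter (−0.47), Nfat5 (−0.43), the taurine transporter (−0.33) and UT-B (−0.29). Between Slc14a2 and Slc14a1 the log2 ratios spanned less than the SD of 0.38 among probe sets at either brightness. That SD is a spread over different probe sets and not the error of a single ratio. With 1 array per pool no such error exists, so the order of these 5 genes cannot be read as a ranking. Akr1b1 was not tested against Slc14a2, the next gene in this order. Each of these ratios stayed below 0 with median centring, with quantile normalization and with a loess trend subtracted. A pseudocount of 16 changed their size and cannot change their sign.

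**Figure D3:**
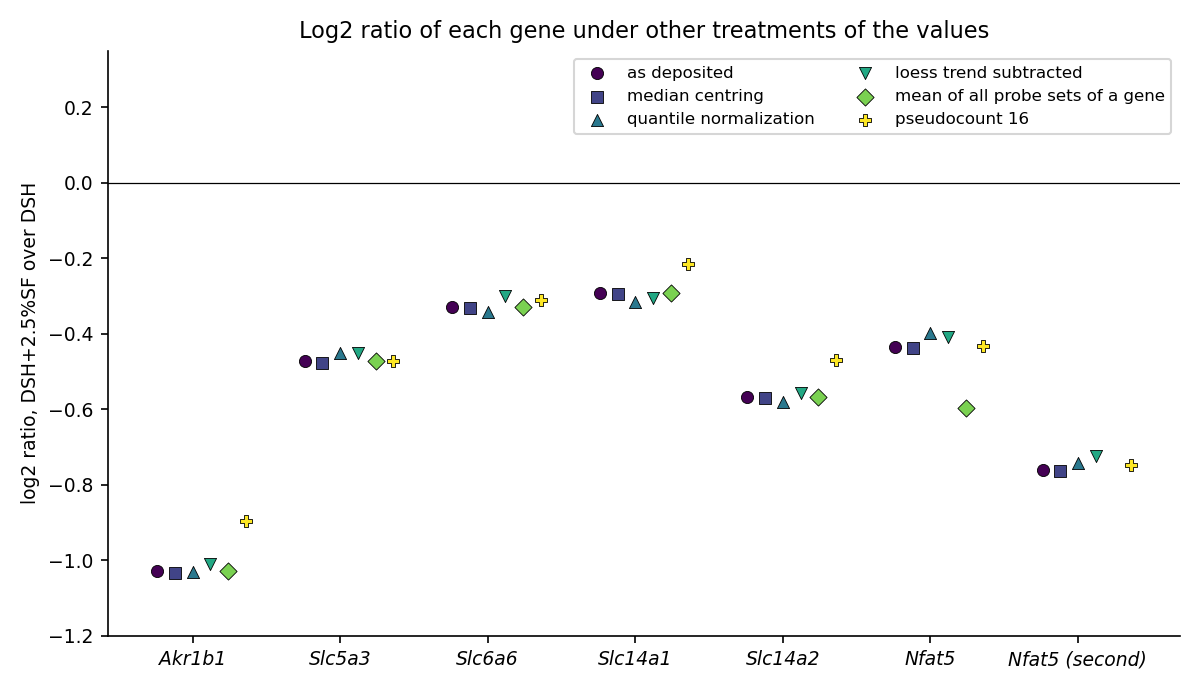
Log2 ratio of DSH+2.5%SF over DSH for each gene and for the second Nfat5 probe set, with one symbol for each treatment of the values. Akr1b1 lay between −1.03 and −0.90, Slc14a1 between −0.31 and −0.21, and no symbol lies above 0.

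The promoter stretches of the members were searched for the TonE consensus to which NFAT5 binds, because the 6 genes shared a direction. RefSeq (build GRCr8) gave 6 stretches for 5 of the 7 genes, each of 250 bases before and 50 after an annotated start site. Akr1b1 and Nfat5 had no stretch and were not searched, whereas Slc6a12, which was not measured, had one. The consensus opens with TGGAAA, and both strands were searched. Of the 5 genes searched, Slc6a6 had a match, on the strand opposite to the gene at positions −161 to −151 from the start site. A match was found in 5.98% of all 33469 promoter stretches of that length. The letters TGGAAA alone were found in Slc6a6 and in 22.7% of all stretches, and the shorter GGAAA, contained in both longer motifs, in Slc6a6, Slc6a12, Slc5a3 and 1 of 2 stretches of Slc14a2, against 62.7% of all. Slc6a6 is shown for the match, at chr4:125752252-125752551 on the plus strand, with the matched bases in capitals. Slc5a3 is shown beside it as the other measured osmolyte transporter, at chr11:44799537-44799836 on the plus strand, where the capitals mark GGAAA.
Slc6a6: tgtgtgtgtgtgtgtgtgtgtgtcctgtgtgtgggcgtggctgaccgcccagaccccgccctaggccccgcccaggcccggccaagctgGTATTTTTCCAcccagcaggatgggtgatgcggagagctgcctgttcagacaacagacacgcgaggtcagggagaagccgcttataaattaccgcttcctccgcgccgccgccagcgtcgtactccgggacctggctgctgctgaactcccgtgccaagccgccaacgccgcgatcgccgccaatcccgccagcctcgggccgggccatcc
Slc5a3: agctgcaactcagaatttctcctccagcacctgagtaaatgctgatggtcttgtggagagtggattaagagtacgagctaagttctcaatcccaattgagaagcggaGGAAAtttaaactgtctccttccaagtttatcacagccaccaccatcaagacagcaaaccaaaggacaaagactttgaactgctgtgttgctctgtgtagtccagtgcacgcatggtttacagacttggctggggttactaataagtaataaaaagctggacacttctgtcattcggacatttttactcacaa
A match of letters is a description of the sequence and not a binding site, and these windows cover only the start of each gene. Whether the match bears on the log2 ratio of Slc6a6 (−0.33) was not tested.

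Genes that make, move or break down the same osmolytes did not pass the criteria. Of 16 such genes all 16 were measured, with none higher, none lower, 11 below 0 and a median log2 ratio of −0.12. Sord, which encodes the sorbitol dehydrogenase that removes what aldose reductase makes, had 1236 in DSH+2.5%SF and 1511 in DSH (log2 ratio −0.29). Genes of choline and betaine handling lay at both ends of the list. Slc44a1, a choline transporter gene, had a log2 ratio of −0.47, Aldh7a1, whose enzyme can form betaine, −0.46, and Chdh, the choline dehydrogenase gene, −0.43. Bhmt, whose enzyme breaks down betaine, had the highest value of the list, 0.21, at 589 in DSH+2.5%SF and 510 in DSH. Myo-inositol oxygenase, Miox, which breaks down myo-inositol in the proximal tubule, was listed at the same intensity in both pools, and Slc5a11, which encodes the other sodium-coupled inositol transporter, had a log2 ratio of 0.19. Pnpla6, an esterase gene tied to glycerophosphocholine formation, had a log2 ratio of −0.30.

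Other genes known to respond to tonicity had log2 ratios on both sides of 0. Of 9 on the list 8 were measured, 1 was higher and none was lower, with a median log2 ratio of 0.01. Sgk1, which encodes a kinase induced by hypertonicity and by aldosterone, had 929 in DSH+2.5%SF and 443 in DSH, a 2.10-fold higher level (Z-score 3.07) that also passed among probe sets of similar brightness (2.57). Slc38a2, the amino acid transporter gene SNAT2, had 8417 in DSH+2.5%SF and 8397 in DSH. Ranbp3l had a log2 ratio of 0.32, and the small heat shock protein genes Hspb1 and Cryab had −0.30 and −0.26. Hspb1 was dim, at 21.8 in DSH+2.5%SF, below the median of all probe sets there (23.7), and 26.7 in DSH. Hspa4l, the gene of the osmotic stress protein Osp94, had a log2 ratio of 0.06.

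Genes of water and salt transport that build or use the medullary gradient resembled the osmolyte genes in their median. Of 11 on the list 9 were measured, 2 were lower and 0 were higher, with a median log2 ratio of −0.43. Aqp3, the basolateral water and glycerol channel of the collecting duct, had 330 in DSH+2.5%SF and 660 in DSH (Z-score −3.04, or −2.58 among probe sets of similar brightness). Aqp1, a water channel found in the thin descending limb and the proximal tubule, had 17943 in DSH+2.5%SF and 31005 in DSH (Z-score −2.42, or −1.41 among probe sets of similar brightness). Aqp4 and Avpr2, the vasopressin receptor gene, had log2 ratios of −0.49 and −0.47 without passing, and Kcnj1, the ROMK potassium channel gene, had 0.40. Avpr2 was dim, at 20.0 in DSH+2.5%SF, below the median of all probe sets there (23.7), and 27.8 in DSH. Urea synthesis genes lay around 0, with none of 6 passing and a median of −0.04. Of these, 3 were below 0 and 3 above, from −0.19 (Cps1) to 0.32 (Otc). Arg2, the arginase gene expressed in the kidney, had a log2 ratio of −0.16.

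**Figure D4:**
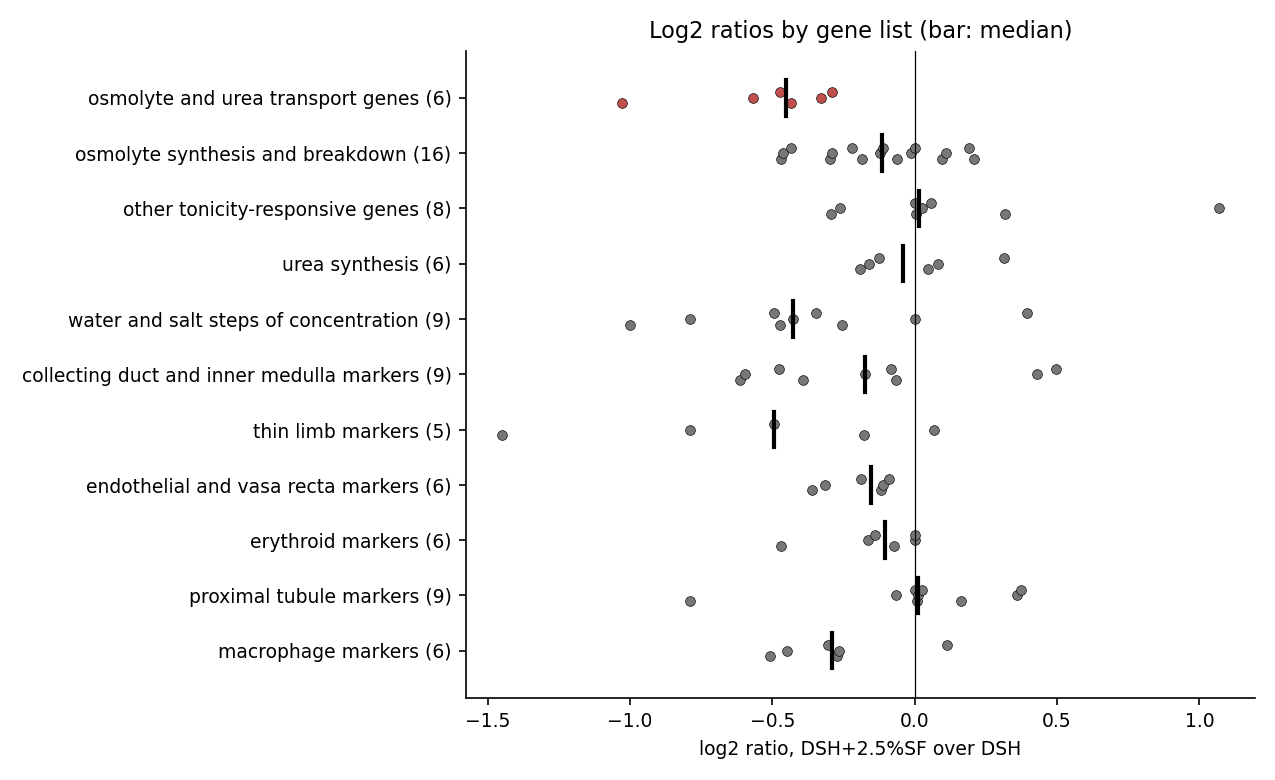
Log2 ratio of DSH+2.5%SF over DSH for each gene (points) in the osmolyte and urea set, in related pathways and in cell type marker lists; numbers in brackets count measured genes and black bars are medians. The 6 osmolyte and urea genes lie between −1.03 and −0.29 with a median of −0.45, close to the water and salt transport list at −0.43, and proximal tubule markers have a median of 0.01.

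Markers of the cells that hold these genes were examined beside them. Of 10 collecting duct and inner medulla markers 9 were measured, none passed, 7 were below 0 and the median log2 ratio was −0.17, with summed intensities of 2902 in DSH+2.5%SF and 2941 in DSH. Krt19, Fxyd4 and Ptgs1 had log2 ratios of −0.61, −0.60 and −0.48, whereas Scnn1g and Elf5 had 0.50 and 0.43. Scnn1g, at 947 in DSH+2.5%SF and 672 in DSH, made the sums more alike. Elf5 was dim, at 19.3 in DSH, below the median of all probe sets there (22.9). The list left out Aqp3, the collecting duct channel gene that was lower by the criteria. Also left out were Aqp2, Aqp4 and Avpr2, with log2 ratios of −0.35, −0.49 and −0.47. All were counted with water and salt transport, where 7 genes were below 0 and 1 above. Of 6 thin limb markers 5 were measured and 2 were lower, Cldn4 at 350 in DSH+2.5%SF and 957 in DSH and Aqp1, with a median of −0.50 and sums of 18367 in DSH+2.5%SF and 32048 in DSH. Aqp1, which the proximal tubule also expresses, made up most of both sums. All 6 measured endothelial markers, of the cell type that carries UT-B in the vasa recta, were below 0 and none passed (median −0.15, sums 6234 in DSH+2.5%SF and 6881 in DSH).

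Red cells also carry UT-B, and of 7 erythroid markers 6 were measured and none passed (median −0.10, sums 623 in DSH+2.5%SF and 821 in DSH). Slc4a1, at 502 in DSH+2.5%SF and 696 in DSH, made up most of both sums. The list held no globin gene, and the paper reports Hbb and Hbb-b1 among the genes of pathways downregulated by SF. The 9 proximal tubule markers of the cortex had a median of 0.01, with 1 lower (Aqp1), none higher and sums of 377693 in DSH+2.5%SF and 392709 in DSH. Of 6 macrophage markers none passed (median −0.29, sums 835 in DSH+2.5%SF and 987 in DSH). The lowest intensities among the measured markers of these lists were 13.9 in DSH+2.5%SF and 15.6 in DSH, both of Ahsp. Ahsp, Klf1, Epb42, Ank1 and the thin limb marker Sptssb were below the median of all probe sets in both pools (23.7 in DSH+2.5%SF and 22.9 in DSH). The part of the share of medulla, thin limb or vasa recta in the ratios of the osmolyte and urea genes was not tested.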

How the data were processed

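Clariom D rat arrays of whole-kidney RNA, 1 pool of 3 rats per group, were analysed. Per the labels, the authors obtained the deposited intensities with RMA (background correction, normalization, probe set summary) in Affymetrix Expression Console 1.4.1. For the probe set design, a genome build was not given in the sources used here. The highest intensity was 999966 and 2376 probe sets in DSH+2.5%SF and 2371 in DSH exceeded 65535, the limit of a 16-bit scan. How the scale was set was not tested, and fold sizes would depend on it if it was not a constant factor. Log2 ratios, Z-scores and calls were computed for 68842 probe sets. Of these 23446 carried 1 gene symbol, 505 several, which were not used, and 44891 none used here. Older list symbols were matched through Entrez numbers and RefSeq.

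The members and the gene and marker lists were chosen with earlier results of these data known. Named genes were all members, list genes past the criteria and up to 4 per list with the largest absolute log2 ratios, and a few others were named for their role. Having 1 array in each group limits the precision. Alternatives were another Z-score, other thresholds, 3 other scalings, probe set averaging, a filter on dim probe sets and a pseudocount. Python 3.11.15, numpy 2.4.6, pandas 2.3.3, statsmodels 0.14.6 and matplotlib 3.10.9 were used.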

Additional observations from a re-analysis of the deposited data

How the results depend on the processing

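The count of 1 lower and 0 higher genes among the 6 was the same under all 9 other settings listed with the processing, and Akr1b1 passed in each. Using the ratio criterion alone only drops a requirement, so it could not remove the Akr1b1 call. Median centring leaves every Z-score unchanged and moved the Akr1b1 log2 ratio only from −1.029 to −1.033. With the second Nfat5 probe set in place of the brightest, an alternative added after its value was seen, 2 genes were lower and the median log2 ratio was −0.52. Averaging the probe sets within each gene gave −0.52 as well. All 68 log2 ratios of the members and the second Nfat5 probe set under alternatives were below 0. Many of these repeat the main values, because another Z-score, other thresholds and the dim filter do not change a log2 ratio. The pseudocount cannot change a sign, so the 68 values are not separate checks of the direction. The second Nfat5 probe set lost its call with the Z-score among probe sets of similar brightness, with ratios of at least 2 or at most 0.5, and with dim probe sets left out. The cause was not tested. No paired analysis was possible because each group had 1 array. Leaving out a replicate was not possible for the same reason, and differences between the pools cannot be told apart from differences among single rats or arrays.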

Other observations

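Close relatives of the osmolyte genes, which share their protein families, had ratios on both sides of 0. Of 19 on the list 18 were measured, 1 was higher, none was lower, 12 were above 0 and the median log2 ratio was 0.10. Slc5a8, a sodium-coupled monocarboxylate transporter gene of the Slc5a3 family, had 1440 in DSH+2.5%SF and 704 in DSH, a 2.04-fold higher level (Z-score 2.96, and 2.38 among probe sets of similar brightness). Slc6a18, an amino acid transporter gene of the Slc6a6 family, had a log2 ratio of −0.58 without passing. Akr1b8 and Akr1b10, relatives of Akr1b1, had log2 ratios of −0.34 and 0.22, and Nfatc4 and Nfatc3, relatives of Nfat5, had −0.31 and 0.13. The separately annotated symbols Akr1b8-ps2 and Akr1b1-ps2 were not on the list. Akr1b8-ps2 had 8086 in DSH+2.5%SF and 21382 in DSH (log2 ratio −1.40, Z-score −4.23), which passed the criteria for lower. Akr1b1-ps2 had a log2 ratio of −0.49 without passing.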
